A study of Homo sapiens with 9 samples.

Results

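Ramos cells, a B cell line from an EBV-negative Burkitt lymphoma with MYC placed under an immunoglobulin locus, were compared after their first 3 h in CHIR99021 with untreated cells. The members were chosen by the sample titles: the 3 libraries of 3 h (replicates 5, 6 and 7) against the 3 libraries of 0 h (replicates 1, 2 and 3), which are 6 of the 9 libraries of the series. The treated cells received 3 µM CHIR99021, a small molecule that inhibits both GSK-3 kinases, and the untreated cells received none. The other 3 libraries came from cells kept for 6 h in the same dose and served here to estimate the spread and to set later levels beside the early ones. Each group is described as biological triplicates of this 1 cell line. No untreated library of 3 h was analysed here, and no vehicle is named for the untreated cells, so effects of the inhibitor, of any solvent and of 3 h in culture cannot be told apart. Of 28412 genes with a read in any library, 15847 had enough reads to be tested.

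GSK-3 is a kinase that is active in resting conditions and marks many proteins for degradation, among them beta-catenin, MYC and the transcription factors that control sterol synthesis. When it is inhibited, beta-catenin accumulates and can join TCF/LEF factors on their target genes, and MYC protein becomes more stable. MYC binds DNA with its partner MAX at the motif CACGTG and is known for raising the transcription of genes that build ribosomes. Protein levels were not measured here.

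Reads in genes numbered 48374969 to 52880876 in the 6 libraries, at which a count of 0 allows a normalised read count (CPM, scaled to library size) of up to 0.0567 to 0.0620, for counting error only. Untreated replicate 3 stood apart from its group: its counts differed from those of replicates 1 and 2 by a chi-square of 33.1 and 29.7 per degree of freedom, against 1.75 between replicates 1 and 2. Genes of the cytosolic ribosome took 6.29% of its reads, the highest share of the 3 untreated libraries, of which the lowest had 5.32%. The pairs at 3 h gave chi-square values of 2.74 to 8.76. Without untreated replicate 3, 5318 genes were called higher and 5443 lower, and of the named genes MT-CO2 alone lost its call. CPM below are scaled by TMM factors, and log2 fold changes are 3 h against 0 h with their standard error (SE). A gene is called higher or lower where edgeR's quasi-likelihood test gave a Benjamini-Hochberg adjusted p under 0.05 over all genes tested.

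By 3 h most tested genes were called, many of them for small changes. In all, 10505 genes (66.3%) were called, 5201 higher (32.8%) and 5304 lower (33.5%), and 5342 were not called. Counts of called list members given below are to be read against these shares. The median size of the change among called genes was 0.60 on the log2 scale (1.52-fold), and 2896 of the higher and 2209 of the lower genes changed by less than 1.5-fold. When tested for more than a 1.2-fold change, 7261 of the 15847 genes were called. Larger falls were more frequent than larger rises, with 1678 genes (10.6%) lower by at least 2-fold against 784 (4.95%) higher by as much, and 264 against 60 at 4-fold. This excess lay in the lower 3 of 5 level classes (quintiles by mean CPM): 720 genes fell and 213 rose by at least 2-fold in the lowest quintile, 612 and 118 in the next and 245 and 109 in the middle one, against 73 and 134 in the fourth and 28 and 210 in the highest. The 3 h and 0 h libraries did not overlap for 11131 genes (70.2%), of which 10238 (64.6% of those tested) were also called. Named genes were mostly chosen for a small p or for absence of overlap. Remarks below that their groups lie apart therefore describe the values and are no separate result. The balance of directions depends on scaling. The median of all genes was -0.01 with TMM factors, -0.17 with upper-quartile factors and -0.22 with library size alone. Called genes divided into 3852 higher and 6854 lower (35.98% higher) with upper-quartile factors and 3468 and 7451 (31.8%) with library size alone, against 49.5% higher with TMM.

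**Figure D1:**
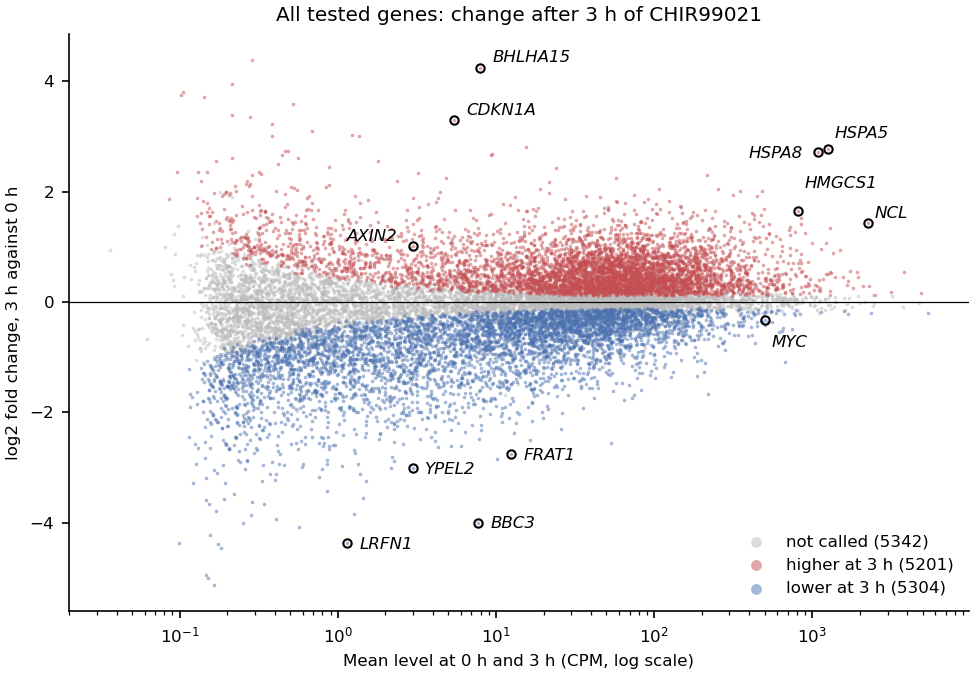
Change after 3 h in CHIR99021 (log2 fold change against 0 h) of each of the 15847 tested genes against its mean level over the 0 h and 3 h libraries (CPM, log scale). Red points are the 5201 genes called higher and blue points the 5304 called lower; HSPA5 and HSPA8 lie at the upper right and BBC3 at the bottom.

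The direction went with the level of the gene and with its class. In the lowest quintile of tested genes by mean level (0.0361 to 0.881 CPM), 11.3% were called higher and 32.7% lower. In the highest quintile (76.1 to 5390 CPM), 55.3% were called higher and 17.6% lower. Long intergenic noncoding RNAs fell more often than they rose (54.0% lower and 10.3% higher of 561, median log2 fold change -0.65), as did antisense RNAs (49.2% and 12.3% of 1004, median -0.53). Protein-coding genes were balanced (34.1% lower and 37.4% higher of 11619, median 0.01). Processed pseudogenes, whose reads can stem from the parent gene, rose more often (29.7% higher and 7.43% lower of 1399, median 0.15). Protein-coding genes that fell by at least 2-fold had a median GC content of 54.6% and a median level of 3.91 CPM at 0 h, against 48.3% and 31.3 CPM over all tested protein-coding genes. Those that rose by at least 2-fold had medians of 48.6% and 27.0 CPM. The part that library preparation has in these shares was not tested. The 784 genes higher by at least 2-fold took 3.95% ± 0.0941 of all reads in genes at 0 h and 8.65% ± 0.0719 at 3 h (SD, n = 3).

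**Figure D2:**
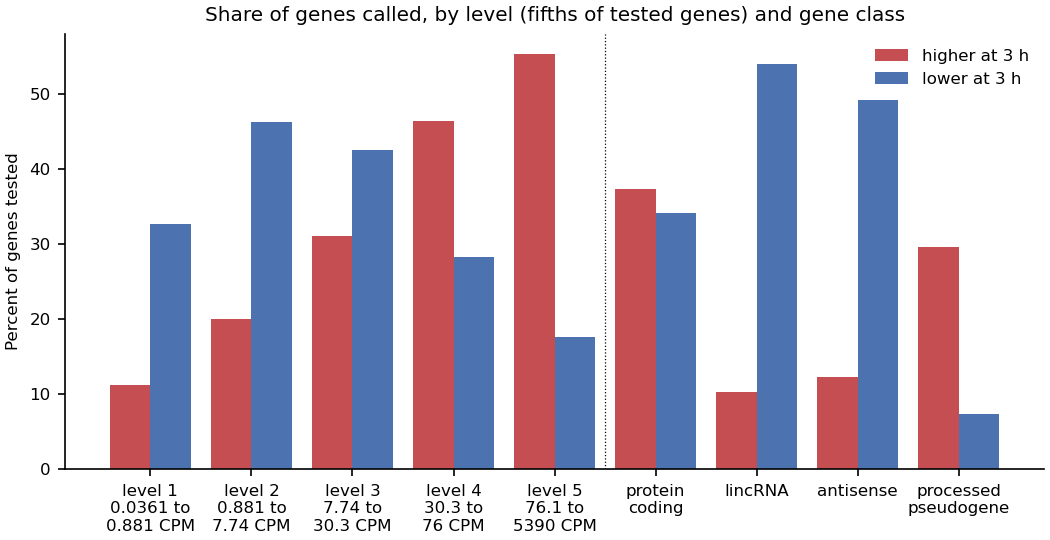
Percent of tested genes called higher (red) or lower (blue) at 3 h, by quintile of mean level and by GENCODE gene class. Higher calls go from 11.3% in the lowest to 55.3% in the highest quintile, and lower calls lead in lincRNA and antisense genes.

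The largest rise among genes with a mean of at least 1 CPM was that of BHLHA15 (ENSG00000180535), which encodes MIST1, a transcription factor of secretory cells. It was at 0.662, 0.86 and 0.853 CPM in the untreated libraries and at 17.2, 13.4 and 14.5 CPM at 3 h. Its log2 fold change was 4.24, with SE 0.13 and an adjusted p of 1.97e-11. CDKN1A, an inhibitor of cyclin-dependent kinases, came next, at 0.984, 0.929 and 1.09 CPM untreated and 10.1, 9.81 and 9.49 CPM at 3 h (log2 fold change 3.29, SE 0.1). RNF11, a RING finger protein of ubiquitin ligase pathways, rose from a mean of 0.267 to 2.198 CPM and LANCL2, a LanC-like protein, from 7.597 to 40.6 CPM. SGK1, a serum- and glucocorticoid-induced kinase, rose from 0.846 to 3.89 CPM.

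Among the 15 largest rises, 5 belong to HSP70-type chaperones or their J-domain partners (HSPA5, HSPA8, DNAJA1, DNAJB9) or to RNA polymerase I (POLR1G), and 3 are HSPA8 pseudogenes (HSPA8P7, HSPA8P1, HSPA8P8) whose sequence is shared with HSPA8, so that their separate values are uncertain. TRDC, a T cell receptor delta constant segment, rose from 0.912, 0.946 and 1.35 CPM to 5.04, 5.68 and 5.49 CPM. The defining T and NK cell markers CD3D, CD2 and CD8A were at 0 in all 6 libraries.

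The largest falls were those of LRFN1, a synaptic adhesion protein, and BBC3, the pro-apoptotic BH3-only protein PUMA. LRFN1 went from 1.93, 1.98 and 2.61 CPM to 0.0858, 0.0979 and 0.122 CPM (log2 fold change -4.38, SE 0.25), which is near the limit of detection given above. BBC3 was well measured at 13.2, 13.9 and 16.3 CPM untreated and 0.901, 0.646 and 1.16 CPM at 3 h, with a log2 fold change of -4.002, SE 0.17 and an adjusted p of 5.32e-10. Absence of overlap was a condition of this ranking and of that of the largest rises, so it is no separate result for any gene of either. FRAT1 (ENSG00000165879), which encodes a protein that binds GSK-3 and blocks its action on beta-catenin, fell from 20.9, 20.7 and 23.7 CPM to 3.17, 3.13 and 3.31 CPM (log2 fold change -2.76, SE 0.091, adjusted p = 3.26e-11). The 3 treated libraries were nearly equal.

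Other large falls were those of VPS37D, a subunit of the ESCRT-I sorting complex (2.38 to 0.163 CPM), the F-box protein FBXO27 (2.49 to 0.285 CPM), YPEL2, of the yippee-like family (5.29 to 0.657 CPM), and NOL4L (17.8 to 2.47 CPM). RARA-AS1, KCTD13-DT, FLJ20021, LINC02361, LBX2-AS1 and JTB-DT, which carry noncoding or uncharacterised gene names, were also among the 15 largest falls, at log2 fold changes from -3.55 to -2.81. Whether counting used strand is not given in the sources used here, and antisense and divergent transcripts may hold reads of their neighbours.

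**Figure D3:**
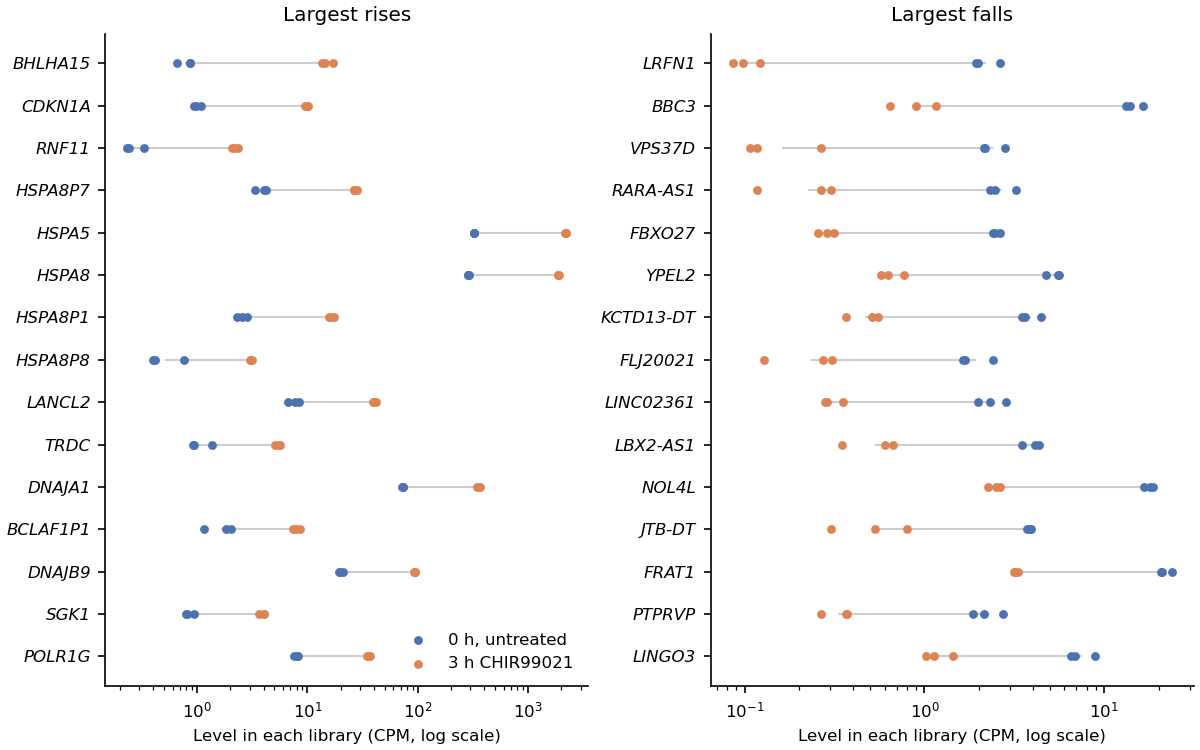
Level in each library (CPM, log scale) of the 15 largest rises and the 15 largest falls among genes with a mean of at least 1 CPM; blue points are the 3 untreated libraries, orange points the 3 libraries of 3 h, and grey lines join the means. Genes were ranked only if they were called and their groups did not overlap, so none shown overlaps.

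In absolute level, the largest gains were made by abundant genes. NCL, the nucleolar protein nucleolin, went from 1246, 1231 and 1216 CPM to 3227, 3379 and 3319 CPM (log2 fold change 1.43, SE 0.048). ACTB (beta-actin) rose from 3123 to 4528 CPM, HNRNPU, a nuclear RNA-binding protein, from 794 to 1655 CPM, and the immunoglobulin lambda variable gene IGLV2-23 from 1024 to 1974 CPM. SRRM2, a protein of nuclear speckles, rose from 1080, 1048 and 732 CPM to 1832, 1853 and 1616 CPM, with untreated replicate 3 the lowest of its group. The largest losses were those of EEF2, the translation elongation factor, from 5748 to 5032 CPM (log2 fold change -0.19, SE 0.052), which lost its call when tested for more than a 1.2-fold change (adjusted p = 0.889), and of IRAG2, a membrane protein of lymphoid cells, from 921 to 434 CPM (log2 fold change -1.08, SE 0.053). KIF21B, a kinesin motor, fell from 371, 354 and 271 CPM to 108, 105 and 101 CPM, also with untreated replicate 3 the lowest of its group.

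Genes that fold and export proteins in the endoplasmic reticulum (ER) rose together. Of 24 chaperones, disulfide isomerases and oxidases of the ER lumen, 20 were called higher and 1 lower, with a median log2 fold change of 1.2, against 32.8% higher and a median of -0.01 over all genes. HSPA5 (ENSG00000044574), the ER chaperone BiP, was at 325, 327 and 323 CPM untreated and 2183, 2227 and 2207 CPM at 3 h. The groups were each tight and far apart (log2 fold change 2.76, SE 0.051, adjusted p = 2.78e-13). Per kilobase of exon, HSPA5 stood below CALR, CANX and P4HB at 0 h (83.1 against 163, 96.9 and 91.4 CPM per kb) and above all of them at 3 h (564 against 465, 176 and 180.0 CPM per kb). HSP90B1, the ER form of HSP90, rose from 194, 192 and 186 CPM to 746, 805 and 758 CPM (log2 fold change 2.01, SE 0.052), without overlap. CALR, the lectin chaperone calreticulin, rose from 429, 442 and 456 CPM to 1305, 1206 and 1275 CPM (log2 fold change 1.51, SE 0.056), likewise without overlap. HYOU1, the nucleotide exchange factor of BiP, had a log2 fold change of 1.68, SE 0.052, and its J-domain partners DNAJB11 and DNAJB9 had a log2 fold change of 1.65, SE 0.053, and 2.24, SE 0.053. The exceptions were SIL1 (-0.03), ERO1A (0.05) and DNAJC10 (0.07), which were not called, and the oxidase ERO1B, which fell by 0.34 on the log2 scale. Summed over the 24 genes, the list took 0.429% of reads in genes at 0 h and 1.01% at 3 h.

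**Figure D4:**
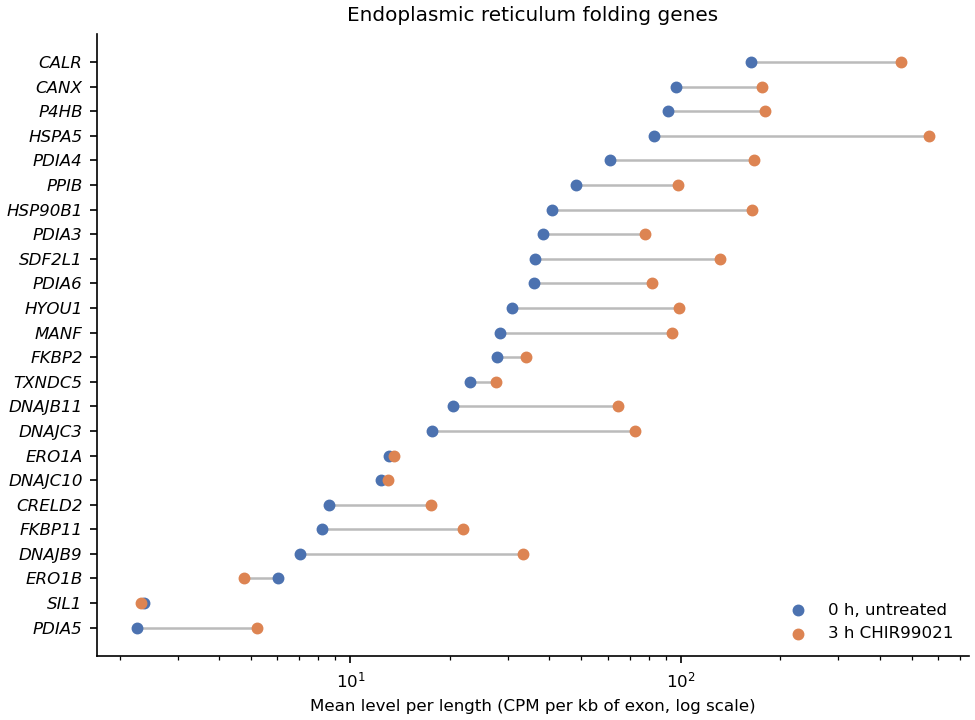
Mean level per length (CPM per kb of exon, log scale) of the 24 ER folding genes at 0 h (blue) and 3 h (orange), ordered by their level at 0 h. HSPA5 moves from 83.1 to 564 CPM per kb, and 20 of the 24 genes were called higher.

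The ER stress response is known for the ER stress element (CCAAT, then 9 free bases, then CCACG), bound by ATF6 and the CCAAT factor NF-Y, so the promoters of 3 of these genes are shown with that motif in capitals. Sequences are the 250 bases before the transcription start on the gene's strand, 5′ to 3′, from RefSeq (GRCh38.p14), at chr9:125241344-125241593 for HSPA5, chr12:103930160-103930409 for HSP90B1 and chr19:12938359-12938608 for CALR. Where the motif lies on the other strand, its reverse complement is in capitals.
HSPA5: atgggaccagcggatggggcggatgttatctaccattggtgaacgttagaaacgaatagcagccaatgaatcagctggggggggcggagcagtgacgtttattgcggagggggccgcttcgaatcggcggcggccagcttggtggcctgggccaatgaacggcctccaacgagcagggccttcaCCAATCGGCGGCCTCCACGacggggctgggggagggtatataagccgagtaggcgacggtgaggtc
HSP90B1: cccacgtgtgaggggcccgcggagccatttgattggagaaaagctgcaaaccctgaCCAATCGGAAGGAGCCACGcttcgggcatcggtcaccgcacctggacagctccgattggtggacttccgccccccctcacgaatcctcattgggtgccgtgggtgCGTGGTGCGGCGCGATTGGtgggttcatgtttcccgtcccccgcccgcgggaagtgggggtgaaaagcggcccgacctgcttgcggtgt
CALR: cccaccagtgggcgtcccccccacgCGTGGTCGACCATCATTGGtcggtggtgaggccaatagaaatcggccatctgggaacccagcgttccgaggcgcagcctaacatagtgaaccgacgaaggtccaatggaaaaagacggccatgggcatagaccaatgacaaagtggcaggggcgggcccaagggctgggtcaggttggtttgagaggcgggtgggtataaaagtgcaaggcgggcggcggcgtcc

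HSPA5 has 1 match, 66 to 48 bases before its start. HSP90B1 has 2, at 194 to 176 bases and, on the other strand, at 89 to 71 bases, and CALR has 1 on the other strand at 225 to 207 bases. Searched on both strands of windows of 300 bases (250 before to 50 after the start), the motif was present in 27 of all 35116 RefSeq promoters in the table (0.0769%) and in 14 of the 10233 tested genes with a promoter there (0.137%). Of those 14 genes, 12 were called higher (85.7%) and 1 lower (7.14%), with a median log2 fold change of 0.53, against 36.1% higher and 35.4% lower of the 10219 without it. They include 6 of the 23 ER folding genes with a promoter. The gene with the motif that was called lower is ERO1B (log2 fold change -0.34), whereas the 3 promoters shown are those of genes with large rises. A match is a description of the letters in the window and not a site of binding.

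The rest of the secretory route followed in part. Of 25 genes of ER translocation and ER-associated degradation, 20 rose and 2 fell (median 0.45), and at most 1 was called lower without any 1 of 8 libraries, all but untreated replicate 3. SEC61A1, the channel subunit of the translocon, went from 132, 132 and 127 CPM to 512, 494 and 492 CPM (log2 fold change 1.94, SE 0.048), and the groups did not overlap. SELENOS, of the degradation machinery, rose with a log2 fold change of 1.82, SE 0.053 and HERPUD1, of the same route, with a log2 fold change of 1.38, SE 0.047. Of 28 COPI and COPII vesicle genes, 24 rose and 2 fell (median 0.64), among them the cargo adaptor SEC24D (log2 fold change 1.46, SE 0.061) and the cargo receptor SURF4 (log2 fold change 1.15, SE 0.046). The sensors and transcription factors of the ER stress response divided, with 4 of 12 higher and 4 lower and a median of 0.07, which was -0.05 without untreated replicate 3, -0.08 with upper-quartile factors and -0.13 with library size alone. Besides BHLHA15, WFS1, an ER membrane protein, rose (log2 fold change 0.98, SE 0.098). XBP1 was 465, 462 and 479 CPM untreated and 560, 550.3 and 572 CPM at 3 h (log2 fold change 0.26, SE 0.046), a rise that was not called with library size alone (adjusted p = 0.222) or when tested for more than a 1.2-fold change (adjusted p = 0.434). ERN1, which encodes the sensor kinase IRE1, fell from 68.2, 69.7 and 55.9 CPM to 26.8, 30.4 and 28.5 CPM (log2 fold change -1.18, SE 0.08), and DDIT3, the stress factor CHOP, fell from a mean of 40.99 to 25.5 CPM. Spliced XBP1 cannot be told from unspliced XBP1 in counts per gene.

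Cytosolic chaperones rose as well. Of 28 genes of the HSP70 system, 22 rose and 3 fell (median 0.65), and their share of reads went from 0.228% to 0.459%. HSPA8 (ENSG00000109971), the constitutive HSP70, was at 293, 287 and 287 CPM untreated and 1872, 1921 and 1887 CPM at 3 h (log2 fold change 2.71, SE 0.048, adjusted p = 2.78e-13). The spread within groups was far smaller than the gap between them. Its J-domain partner DNAJA1 went from 72.8, 72 and 73.8 CPM to 347, 368 and 362 CPM (log2 fold change 2.3, SE 0.054), and DNAJB1 from 52.9, 55.7 and 55.8 CPM to 200, 187 and 199.6 CPM. HSPA1B, the inducible HSP70, rose from 6.76, 7.36 and 8.101 CPM to 31.1, 29.2 and 31.5 CPM, but shares nearly all its sequence with HSPA1A, so the separate values are uncertain. HSPA6, a strictly heat-inducible HSP70, had a mean of 0 CPM untreated and 0.0068 CPM at 3 h and was not tested. At 6 h the means were higher still: 4208 CPM for HSPA8, 758 CPM for DNAJA1 and 158 CPM for HSPA1B.

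The HSPA8 promoter is shown because heat shock factors are known to bind inverted repeats of GAA, and the capitals mark matches to a heat shock element (GAA, TTC and GAA, or TTC, GAA and TTC, each 2 free bases apart), searched on both strands. The 250 bases lie at chr11:123062137-123062386 on the minus strand of GRCh38.p14 (RefSeq).
HSPA8: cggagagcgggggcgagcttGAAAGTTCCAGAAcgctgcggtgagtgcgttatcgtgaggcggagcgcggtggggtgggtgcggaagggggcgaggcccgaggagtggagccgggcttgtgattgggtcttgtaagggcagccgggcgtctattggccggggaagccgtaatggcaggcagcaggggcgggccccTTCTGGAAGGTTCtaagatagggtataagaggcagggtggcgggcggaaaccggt

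There are 2 matches, 230 to 218 and 55 to 43 bases before the start. This motif was present in 172 of 35116 promoters in the table (0.490%) and in 29 of 10233 tested genes (0.283%), of which 14 were called higher (48.3%) and 7 lower (24.1%), against 36.1% and 35.4% of tested genes without it. In the HSP70 list, 3 of the 24 genes with a promoter held it.

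Of 13 genes of the HSP90 system, 9 rose and none fell (median 0.31). HSP90AA1 rose from 654, 652 and 613 CPM to 1285, 1432 and 1330 CPM (log2 fold change 1.08, SE 0.059) and the co-chaperone STIP1 from a mean of 186 to 393 CPM. Of 14 subunits of the TRiC and prefoldin folding complexes, 11 rose and 1 fell, with a median of 0.32, and CCT2 rose (log2 fold change 0.78, SE 0.056). Of 30 proteasome subunits, 27 rose and none fell, by a median of 0.39 (1.31-fold), with PSMD12 at a log2 fold change of 0.98, SE 0.049. Of 13 mitochondrial chaperones and proteases, 7 rose and 3 fell; the median was 0.16, and -0.04 with library size alone. HSPA9, the mitochondrial HSP70, had a log2 fold change of 0.705, SE 0.05, and GRPEL1, its exchange factor, a log2 fold change of 1.23, SE 0.055.

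Genes that build ribosomes rose in nearly all cases. Of 43 genes of the small subunit processome, the particle that processes the precursor of 18S ribosomal RNA, 40 rose and none fell, with a median of 1.04. UTP18 (0.05), IMP4 (0.07) and UTP3 (0.11) were not called. UTP14A went from 25.4, 26.9 and 25.4 CPM to 88.1, 95.7 and 88.6 CPM (log2 fold change 1.81, SE 0.06), and the 3 treated libraries lay far above the untreated ones. RRP12, an export factor of pre-ribosomes, rose from 30.8, 32.1 and 29.4 CPM to 122, 113 and 117 CPM (log2 fold change 1.93, SE 0.06), and PNO1, an assembly factor of the small subunit, from 22.1, 23.4 and 22.7 CPM to 73.03, 72.99 and 74.9 CPM (log2 fold change 1.696, SE 0.052), both without overlap. Of 42 large subunit assembly factors, 40 rose and none fell (median 0.95), among them RRP15 (log2 fold change 1.56, SE 0.057), PES1 (log2 fold change 1.52, SE 0.056) and GTPBP4 (log2 fold change 1.17, SE 0.044). Of 17 proteins of small nucleolar ribonucleoproteins, which guide the modification of ribosomal RNA, 14 rose and 1 fell (median 0.67). NOP56 and NOP58, core proteins of the box C/D particles, had a log2 fold change of 1.61, SE 0.043, and 1.32, SE 0.054, and the box H/ACA protein DKC1 a log2 fold change of 1.28, SE 0.049.

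RNA polymerases I and III make ribosomal and transfer RNA. Of 34 subunits and factors, 28 rose and 1 fell (median 0.63), and none fell without 3 h replicate 5 or 6. POLR1G (ENSG00000117877), a subunit of polymerase I, rose from 7.59, 8.17 and 8.05 CPM to 35.02, 35.2 and 36.9 CPM (log2 fold change 2.17, SE 0.059, adjusted p = 1.06e-11), the largest change of the list and without overlap. RRN3, the initiation factor of polymerase I, had a log2 fold change of 1.15, SE 0.054.

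Promoters of UTP14A and POLR1G are shown for the motif CACGTG, the E-box that MYC and MAX bind, in capitals. They lie at chrX:129905914-129906163 and chr19:45406394-45406643, both on the plus strand of GRCh38.p14 (RefSeq).
UTP14A: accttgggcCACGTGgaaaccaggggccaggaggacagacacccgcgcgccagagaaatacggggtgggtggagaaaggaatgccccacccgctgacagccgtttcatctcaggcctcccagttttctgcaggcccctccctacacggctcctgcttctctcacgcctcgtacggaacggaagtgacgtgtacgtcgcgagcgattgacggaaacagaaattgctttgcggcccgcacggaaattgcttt
POLR1G: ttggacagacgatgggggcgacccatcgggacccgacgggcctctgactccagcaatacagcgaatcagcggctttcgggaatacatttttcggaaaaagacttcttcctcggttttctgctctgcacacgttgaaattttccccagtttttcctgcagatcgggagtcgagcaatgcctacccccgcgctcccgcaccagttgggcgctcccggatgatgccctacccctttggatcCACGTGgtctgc

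The match lies 241 to 236 bases before the start of UTP14A and 12 to 7 bases before that of POLR1G. In windows of 300 bases, CACGTG, which reads the same on both strands, was present in 2548 of 35116 promoters in the table (7.26%) and in 1049 of 10233 tested genes (10.3%). Over 19 lists searched, it was present in 0% to 46.2% of promoters, in 18 of 39 small subunit processome genes (46.2%), in 11 of 36 large subunit assembly factors (30.6%) and in 7 of 28 polymerase I and III genes. Shares near the last were found in lists outside ribosome building: 5 of 21 nuclear transport genes, 5 of 22 of ER translocation and degradation, 4 of 19 of sterol synthesis and 4 of 19 mitotic genes. Among all genes higher by at least 2-fold the share was 18.4% of 474, and among those lower by at least 2-fold 7.79% of 988. Tested genes with the motif were called higher in 43.0% of cases and lower in 29.6%, against 35.3% and 36.1% of those without. Within the small subunit list, the 18 genes with a match had a median log2 fold change of 1.28. The 21 without one had a median of 0.79, and the ranges of 0.05 to 1.81 and 0.11 to 1.38 overlap over most of their length. The gap was smaller among large subunit factors (1.06 with and 0.89 without) and polymerase I and III genes (0.74 and 0.55). Called higher with and without a match were, in that order of lists, 16 of 18 and 20 of 21, 10 of 11 and 24 of 25, and 6 of 7 and 17 of 21. The snoRNP list went the other way, with the motif in 2 of 11 promoters (18.2%). These were FBL (log2 fold change 0.21) and NOP10 (-0.01, not called), both below the list's median of 0.67. Of 7 motifs searched, 4 are named only here, with shares among genes higher by at least 2-fold and among all tested genes. They were 0.422% and 1.11% for the sterol regulatory element, and 0.422% and 0.547% for the C/EBP-ATF response element. For TGTTTAC, bound by FOXO factors, they were 1.899% and 2.26%, and for CTTTGAT or CTTTGAA, bound by TCF/LEF factors, 2.74% and 3.95%. Among genes lower by at least 2-fold the shares were 1.11%, 0.911%, 2.23% and 4.25%, in the same order. In the list nearest to each motif, promoters with it were 1 of 19 for sterol synthesis and 2 of 17 for the integrated stress response. They were 3 of 17 for the FOXO list and 0 of 11 for the TCF/LEF and Wnt feedback list.

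Genes of the mature cytosolic ribosome were mostly not called. Of 82 cytosolic ribosomal protein genes, 8 were called higher and 4 lower, with a median of 0.01 that was -0.14 with upper-quartile factors, -0.19 with library size alone, -0.03 with a filter of 1 CPM, -0.01 without 3 h replicates 5 or 7, and -0.04 and -0.03 without untreated replicates 1 and 2. Without untreated replicate 3, 24 were called higher and 1 lower, and 1 or 2 were called lower without any 1 of the 3 h libraries. RPL13A fell from 539, 546 and 629 CPM to 442, 403 and 443 CPM, while RPL9 rose from 23.7, 24.3 and 28.2 CPM to 34.96, 34.3 and 34.7 CPM. These genes have many processed pseudogenes that can take their reads. Of 76 mitochondrial ribosomal protein genes, 50 rose and 5 fell (median 0.26), and 3 fell without 3 h replicate 6. MRPL15 had the largest rise (log2 fold change 1.21, SE 0.055).

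Translation, splicing and nuclear import genes rose too. Of 32 initiation factor genes, 21 rose and 6 fell (median 0.39). EIF4G1, the scaffold of the cap-binding complex, went from 766, 761 and 681 CPM to 1920, 1829 and 1856 CPM (log2 fold change 1.34, SE 0.054), without overlap, and EIF3B and EIF5 had a log2 fold change of 1.18, SE 0.049, and 1.17, SE 0.051. Of 18 SR splicing proteins and their kinases, 15 rose and 2 fell (median 0.65). SRSF6 (ENSG00000124193) rose from 192, 194 and 178 CPM to 695, 722 and 711 CPM (log2 fold change 1.92, SE 0.049, adjusted p = 6.31e-12), SRSF2 from 244, 245 and 255 CPM to 674, 682 and 682 CPM, and the splicing regulator TRA2B from 311, 318 and 320.4 CPM to 749.9, 750.4 and 767 CPM. None of these 3 genes had overlapping groups. Their means at 6 h were 368, 546 and 438 CPM. Of 25 importins, exportins and related genes, 21 rose and 1 fell (median 0.51), among them the import receptor TNPO2 (log2 fold change 1.58, SE 0.059) and IPO4 (log2 fold change 1.23, SE 0.062). Of 20 tRNA synthetases, 11 rose and 4 fell (median 0.19, and -0.01 with library size alone), with RARS1 higher (log2 fold change 0.81, SE 0.052) and MARS1 lower (log2 fold change -0.44, SE 0.044).

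**Figure D5:**
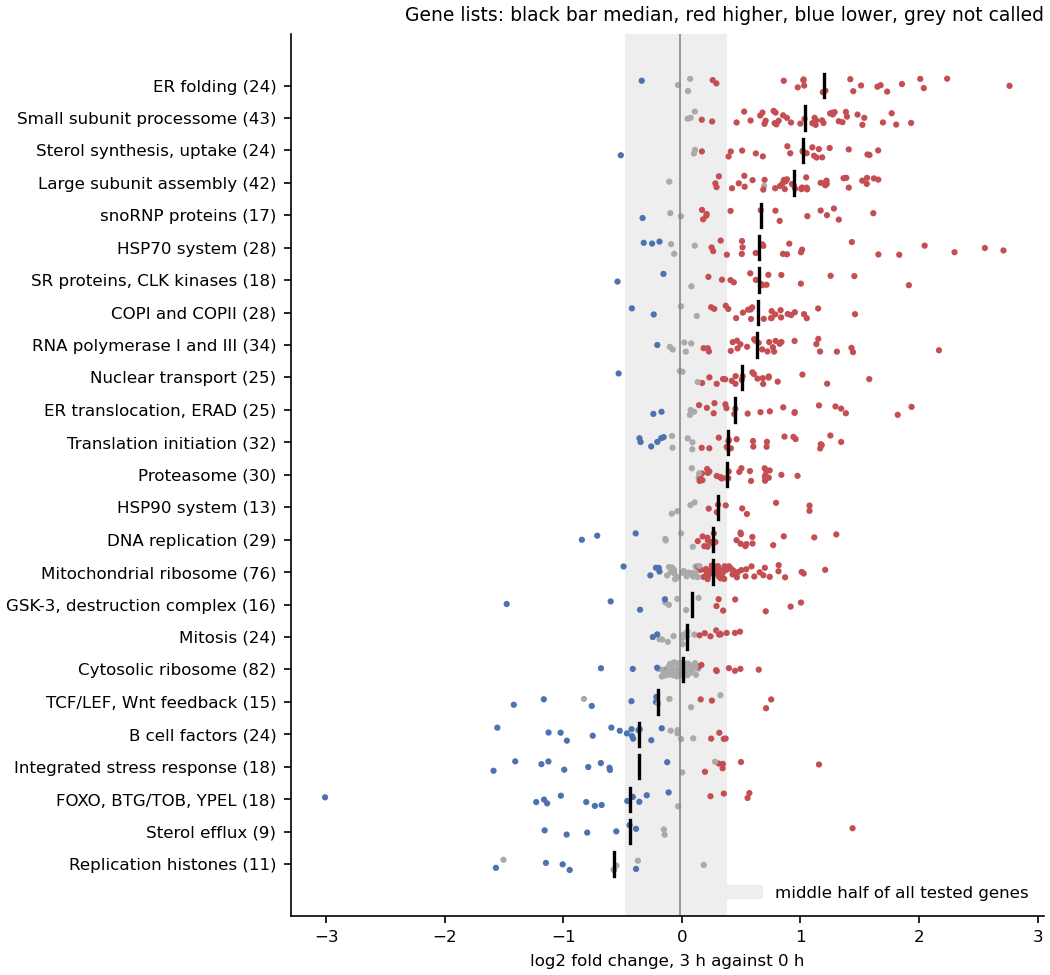
Log2 fold change (3 h against 0 h) of the tested members of 25 gene lists, 1 point per gene (red higher, blue lower, grey not called), with a black bar at each list's median and a grey band over the middle range of all tested genes (quartiles -0.47 and 0.37). ER folding (median 1.2), small subunit processome (1.04), sterol synthesis (1.02) and large subunit assembly (0.95) lie beyond the band on the right, and replication histones (-0.58) at the lower end.

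Genes of sterol synthesis and uptake, the targets of the transcription factor SREBP2, were higher at 3 h. Of 24 tested, 21 rose and 1 fell, with a median of 1.02, and the list's share of reads went from 0.523% to 0.823%. HMGCS1, which makes HMG-CoA, was at 404, 412 and 361 CPM untreated and 1192, 1282 and 1237 CPM at 3 h (log2 fold change 1.66, SE 0.058), without overlap. NSDHL, a later enzyme of the route, had a log2 fold change of 1.57, SE 0.059. TM7SF2, a sterol reductase, fell by 0.51 on the log2 scale, and PMVK (0.10) and FDPS (0.11) were not called. At 6 h the list took 0.583% of reads, and the mean of HMGCS1 was 622 CPM.

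Genes of sterol export moved the other way in most cases: of 9, 6 fell and 1 rose (median -0.44). ABCG1, a cholesterol exporter, fell from 37, 36.2 and 34.9 CPM to 16.2, 16 and 16.3 CPM (log2 fold change -1.16, SE 0.058), and NR1H3, which encodes the sterol-sensing receptor LXR alpha, from a mean of 1.26 to 0.641 CPM. The list member that rose was APOE (1.44), a lipoprotein component. Fatty acid synthesis genes rose in 5 of 9 cases and fell in 2 (1 without 3 h replicate 7), with a median of 0.17 that was -0.03 with library size alone. FASN, fatty acid synthase, rose from 428, 424 and 364 CPM to 1105, 1014 and 999 CPM (log2 fold change 1.36, SE 0.08) and SCD, a desaturase, from 825, 819 and 671 CPM to 1534, 1518 and 1475 CPM (log2 fold change 0.97, SE 0.068), while ACSS2, which makes acetyl-CoA from acetate, fell (log2 fold change -0.56, SE 0.054).

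Among other metabolic genes, enzymes of methionine, polyamine and pyrimidine synthesis were among those with large rises. AMD1, which commits S-adenosylmethionine to polyamine synthesis, rose from 124, 122 and 116 CPM to 345, 347 and 349.9 CPM (log2 fold change 1.52, SE 0.049), and MAT2A, which makes S-adenosylmethionine, from 304, 311 and 262 CPM to 761, 814 and 764 CPM (log2 fold change 1.42, SE 0.063). Neither had overlapping groups. Their list of 15 had 7 higher and 3 lower, with a median of 0.07 (-0.08 with upper-quartile factors, -0.13 with library size alone). UMPS, the last enzyme of pyrimidine synthesis, rose from 13.1, 12.3 and 12.8 CPM to 35.7, 36.1 and 37.7 CPM (log2 fold change 1.52, SE 0.054) in a list of 23 nucleotide synthesis genes with 15 higher and 2 lower (median 0.29). TFRC, the transferrin receptor, rose from 164, 167 and 137 CPM to 421, 436 and 408 CPM (log2 fold change 1.43, SE 0.068).

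Glycogen synthase is the enzyme GSK-3 is named for. GYS1, its muscle-type gene, fell from 55.9, 58.6 and 54.8 CPM to 37.96, 33.9 and 34.8 CPM (log2 fold change -0.67, SE 0.056), and PYGB, a glycogen phosphorylase, rose from 103, 105 and 105 CPM to 213, 205 and 216 CPM (log2 fold change 1.02, SE 0.048). Of 15 glycogen genes, 6 rose (40%) and 4 fell, against 32.8% higher and 33.5% lower over all genes. The median was 0.09 and became -0.06 with upper-quartile factors and -0.11 with library size alone. Among 32 genes of glycolysis and hypoxia, 16 rose and 12 fell, with a median of 0.09 (-0.07 and -0.12 under the same scalings). PFKFB3, which makes an activator of glycolysis, rose (log2 fold change 1.11, SE 0.053), and the oxygen sensor EGLN3 fell from a low 1.92 to 0.579 CPM. Of 15 amino acid transporters, 11 rose and 3 fell (median 0.25). SLC38A2, a neutral amino acid transporter, fell from 107, 109 and 93.2 CPM to 36.7, 36.4 and 36.1 CPM (log2 fold change -1.503, SE 0.06), without overlap, while SLC36A1, of the lysosome membrane, rose (log2 fold change 1.14, SE 0.099).

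Genes of the inhibited kinase's own pathway moved in both directions. GSK3A was at 46.9, 45.3 and 50.1 CPM untreated and 61.5, 54.7 and 60.4 CPM at 3 h (log2 fold change 0.31, SE 0.061), a rise that was not called with library size alone (adjusted p = 0.126) or when tested for more than a 1.2-fold change (adjusted p = 0.16). GSK3B was at 40.2, 41.6 and 33.3 CPM and 43.2, 42.5 and 41.3 CPM, with overlapping groups and an adjusted p of 0.0928, which was 0.0361 with no filter and 0.0356 without untreated replicate 2. CTNNB1, which encodes beta-catenin, rose from 182, 181 and 164 CPM to 222, 229 and 221 CPM (log2 fold change 0.35, SE 0.053). AXIN2, a feedback target of beta-catenin, rose from 2.24, 1.98 and 1.74 CPM to 3.65, 4.11 and 4.21 CPM (log2 fold change 1.005, SE 0.11), and all 3 treated libraries lay above the untreated ones. Of 16 genes of GSK-3 and the complex that degrades beta-catenin, 7 rose and 4 fell, with a median of 0.09 that was -0.06 with upper-quartile factors, -0.11 with library size alone and -0.03 without untreated replicate 3, where 7 rose and 7 fell. APC2, a scaffold of that complex, fell from 29.4, 28.1 and 29.3 CPM to 10.8, 9.87 and 10.5 CPM (log2 fold change -1.48, SE 0.067), and the kinase CSNK1D rose (log2 fold change 0.92, SE 0.045).

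Of 15 tested TCF/LEF factors, co-factors and feedback genes of the Wnt pathway, 4 rose and 6 fell (median -0.20). AXIN2, which rose, is not among them, as it was counted with the complex that degrades beta-catenin. ZNRF3, which removes Wnt receptors, rose from 12.7, 12.6 and 11.5 CPM to 21.6, 19.99 and 20.4 CPM (log2 fold change 0.75, SE 0.067), and BCL9L, a co-activator of beta-catenin, fell from 8.53, 8.1 and 8.25 CPM to 3.35, 3.13 and 2.84 CPM (log2 fold change -1.42, SE 0.11). LEF1 went from 209, 206 and 199 CPM to 179, 174 and 176 CPM, a fall that lost its call when tested for more than a 1.2-fold change (adjusted p = 0.821). The Wnt targets LGR5, SP5, APCDD1 and TNFRSF19 had no read in the 6 libraries.

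MYC mRNA was at 541, 548 and 583 CPM untreated and 464, 422 and 454 CPM at 3 h. The treated libraries were all lower (log2 fold change -0.32, SE 0.052, adjusted p = 9.36e-05), and the call was lost when tested for more than a 1.2-fold change (adjusted p = 0.0991). In the network of MYC partners, competitors and stability factors, 11 of 22 rose and 6 fell (median 0.22). MAX, the obligate partner, rose from 71.9, 72.7 and 74.3 CPM to 99.4, 93.1 and 96.7 CPM (log2 fold change 0.402, SE 0.047). MXI1 and MXD3, which compete with MYC for MAX, fell from 29.8, 29.1 and 27.3 CPM to 9.91, 8.91 and 9.74 CPM and from 53.1, 56.7 and 64.3 CPM to 19.99, 18.5 and 20.6 CPM. USP36, a nucleolar deubiquitinase, rose from 105, 103 and 91.8 CPM to 324, 317 and 310.5 CPM (log2 fold change 1.67, SE 0.057), and USP28, another deubiquitinase of MYC, fell (log2 fold change -0.76, SE 0.064). Apart from GSK3B, no gene of these 3 paragraphs named with values for each library had overlapping groups. Libraries did not overlap for 70.2% of all tested genes, and many of these genes were named for a small p, so this is no separate result.

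Genes linked to quiescence fell in most cases. Of 18 FOXO factors, FOXO targets and members of the BTG/TOB and yippee-like families, 13 fell and 4 rose (median -0.44, against 33.5% lower over all genes). YPEL3 and YPEL5, like YPEL2 above, fell (log2 fold change -1.23, SE 0.081, and -1.02, SE 0.054), as did FOXO4 (log2 fold change -1.16, SE 0.077) and the atypical cyclin CCNG2 (log2 fold change -0.81, SE 0.049). CDKN1B, the kinase inhibitor p27, fell from 52.96, 54.98 and 54.4 CPM to 23.03, 23.9 and 24.2 CPM (log2 fold change -1.19, SE 0.053), opposite to CDKN1A and without overlap, and E2F3 and CDC25A, which drive S phase entry, rose (log2 fold change 1.06, SE 0.058, and 0.84, SE 0.052). Of 29 DNA replication genes, 22 rose and 3 fell (median 0.26; 5 fell without untreated replicate 2), led by the licensing factor CDC6 (log2 fold change 1.303, SE 0.047) and the flap endonuclease FEN1 (log2 fold change 1.12, SE 0.053), and GINS1 fell (log2 fold change -0.71, SE 0.056). Of 24 mitotic genes, 9 rose and 2 fell (5 without untreated replicate 3), with a median of 0.05 that was -0.11 with upper-quartile factors and -0.16 with library size alone. The share of cells in each phase was not measured. Of 11 replication histone genes, 6 fell and none rose (median -0.58; 1 was called higher without untreated replicate 3), all at low levels in these libraries, such as H1-5 at 2.17, 2.201 and 3.48 CPM untreated and 0.922, 1.23 and 1.37 CPM at 3 h.

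Nutrient sensing and autophagy genes divided, with shares to be read against 33.5% lower and 32.8% higher over all genes. CASTOR1, an arginine sensor of the mTORC1 pathway, fell from 1.43, 1.39 and 1.71 CPM to 0.343, 0.0979 and 0.184 CPM (log2 fold change -2.86, SE 0.3), and ULK1, the kinase that starts autophagy, from 8.78, 8.67 and 8.25 CPM to 3.47, 2.8 and 2.61 CPM (log2 fold change -1.53, SE 0.11). Both had groups without overlap. RPS6KB1, the S6 kinase of that pathway, rose (log2 fold change 0.82, SE 0.063). Of 24 genes on this list, 9 rose and 10 fell, with a median of 0.09 (-0.07 with upper-quartile factors, -0.12 with library size alone, about 0 without untreated replicate 3). Of 29 lysosome and autophagy genes, 8 rose and 11 fell (median -0.03): the autophagosome proteins GABARAPL1, WIPI1 and ATG9A fell (log2 fold change -1.12, SE 0.053, -0.88, SE 0.063, and -0.96, SE 0.053), while the proton pump subunit ATP6V1B2 and the membrane protein LAMP1 rose (log2 fold change 0.93, SE 0.048, and 0.79, SE 0.052).

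Genes of the integrated stress response fell in 10 of 18 cases and rose in 6 (median -0.36), against 33.5% lower and 32.8% higher over all genes. ATF3 went from 24.96, 25.3 and 26.2 CPM to 7.76, 9.22 and 8.41 CPM (log2 fold change -1.59, SE 0.07), DDIT4, an inhibitor of mTORC1, from 50.1, 52.3 and 55.5 CPM to 19.8, 19.8 and 19.97 CPM (log2 fold change -1.41, SE 0.072), and ATF5 in the other direction from 42.2, 41.7 and 43.9 CPM to 100.2, 89.3 and 95.5 CPM (log2 fold change 1.16, SE 0.061). Their groups did not overlap. Of 21 p53 targets, 12 fell and 6 rose (median -0.26), and the list holds both BBC3 and genes that rose, such as AEN, a nuclease (log2 fold change 1.03, SE 0.047), and TIGAR, a regulator of glycolysis (log2 fold change 1.09, SE 0.062). The p53 list does not hold CDKN1A, also a p53 target, which rose (log2 fold change 3.29) and was counted with the CDK inhibitors. BBC3 is counted both there and in the BCL2 family below. Of 19 genes of the BCL2 family and the apoptosome, 9 fell and 5 rose (median -0.13). BCL2L11, the BH3-only protein BIM, rose from 37.02, 36.99 and 34.6 CPM to 68.7, 70.5 and 67.7 CPM (log2 fold change 0.93, SE 0.048), and BCL2L2 and APAF1, an anti-apoptotic family member and the apoptosome scaffold, fell (log2 fold change -1.15, SE 0.066, and -1.198, SE 0.062). In the death receptor pathway, 9 of 19 fell and 6 rose, with a median of -0.16 that was 0.02 with a filter of 1 CPM. TNFRSF1A, the TNF receptor, fell from 42.4, 41.8 and 44.4 CPM to 9.01, 8.69 and 8.41 CPM (log2 fold change -2.299, SE 0.071), and RIPK1, a kinase downstream of it, rose from 13.1, 12.1 and 11.3 CPM to 32.8, 34.1 and 33.3 CPM (log2 fold change 1.45, SE 0.06), both without overlap.

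The B cell transcription factors were lower at 3 h in most cases: of 24, 15 fell and 4 rose (median -0.36). BCL6, the germinal centre repressor, fell from 563, 555 and 529 CPM to 335, 325 and 318 CPM (log2 fold change -0.75, SE 0.048), EBF1, which specifies the lineage, from 23.3, 24.4 and 20.8 CPM to 10.4, 11.9 and 11.5 CPM (log2 fold change -1.02, SE 0.073), and PAX5, which maintains it, from 439.8, 429 and 357 CPM to 279, 272 and 262 CPM (log2 fold change -0.59, SE 0.068). In each case the 3 treated libraries lay below the untreated ones, and untreated replicate 3 was the lowest untreated library. BACH2, a repressor of plasma cell differentiation, was at 845, 823 and 611 CPM untreated and 557, 570.5 and 525 CPM at 3 h, and without untreated replicate 3 its log2 fold change was -0.60. Of 8 tested plasma cell markers, 3 rose and 4 fell, among them TNFRSF17, the receptor BCMA, which rose (log2 fold change 0.74, SE 0.062), and CD27, which fell (log2 fold change -0.59, SE 0.069). SDC1, which defines plasma cells, was at or below 0.0057 CPM.

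Genes of antigen presentation and receptor signalling moved in both directions, with shares to be read against 33.5% lower and 32.8% higher over all genes. Of 16 MHC class II genes, 8 fell and 4 rose (median -0.19), and 2 rose without untreated replicate 2. CIITA, the master activator of the class, fell from 53.2, 53.8 and 52.8 CPM to 25.2, 24.6 and 23.6 CPM (log2 fold change -1.12, SE 0.052) and RFXAP, a subunit of its DNA-binding partner, from 21.1, 19.4 and 18.9 CPM to 6.91, 7.71 and 9.09 CPM (log2 fold change -1.33, SE 0.092), without overlap. Of 23 genes of B cell receptor signalling, 10 fell and 7 rose (median -0.12). The inhibitory receptor CD22 went from 774, 776 and 739 CPM to 541, 538 and 520 CPM (log2 fold change -0.52, SE 0.044), the phosphatase PTPN6 (SHP-1) from 12.9, 14.2 and 14.9 CPM to 5.21, 4.62 and 5.29 CPM (log2 fold change -1.48, SE 0.088), and RASGRP3, which activates RAS, from 266, 259 and 233 CPM to 118, 125 and 120.1 CPM (log2 fold change -1.06, SE 0.055). All 3 treated libraries were below all untreated ones for each of them. Among 19 regulators of NF-kappaB, 10 rose (6 without untreated replicate 1) and 7 fell, with a median of 0.14 that was -0.01 with upper-quartile factors and -0.06 with library size alone. TRAF3, an inhibitor of the alternative pathway, rose from 1.57, 1.56 and 1.87 CPM to 5.79, 5.87 and 5.53 CPM (log2 fold change 1.78, SE 0.098), and BCL3, an atypical protein of the IκB family, fell from 11.9, 12.6 and 13.9 CPM to 3.303, 2.72 and 3.21 CPM (log2 fold change -2.06, SE 0.1), both without overlap.

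Circadian clock genes, several of which GSK-3 is known to phosphorylate as proteins, held large opposite changes. DBP, a clock output factor, fell from 16.9, 16.99 and 19.9 CPM to 4.95, 4.52 and 4.94 CPM (log2 fold change -1.9, SE 0.088), while its relative TEF rose from 19.3, 19.9 and 16.4 CPM to 54.7, 53.2 and 54.4 CPM (log2 fold change 1.55, SE 0.066) and the repressor PER2 from 24.8, 25.6 and 20.9 CPM to 56.8, 59.1 and 56.9 CPM (log2 fold change 1.28, SE 0.067). Groups did not overlap for any of the 3. Of 11 tested clock genes, 5 rose and 4 fell; the median was -0.07, and 0.22 with a filter of 1 CPM. Of 19 tested immediate early genes and feedback inhibitors, 7 rose and 7 fell, with a median of 0.07 (-0.09 with upper-quartile factors, -0.14 with library size alone, about 0 with a filter of 1 CPM). SRF, a transcription factor of that response, rose from 85.4, 86.04 and 87.9 CPM to 180.1, 167 and 179 CPM (log2 fold change 1.02, SE 0.053), and DUSP5, a phosphatase, from 0.107, 0.0688 and 0.0556 CPM to 1.11, 0.881 and 0.898 CPM. The untreated DUSP5 levels are near the limit of detection. At low levels falls of at least 2-fold were more frequent than rises, as given above, and falls from at least 1 CPM to under it were not counted. In all, 85 genes with a symbol, of 15847 tested, rose from under 1 CPM at 0 h to at least 1 CPM at 3 h. A call and absence of overlap were conditions of that count. Among them were EGR4, an immediate early transcription factor, at 0.161, 0.12 and 0.148 CPM and then 1.33, 1.02 and 1.37 CPM, FOSL2, a partner of JUN, at 0.68, 0.74 and 0.408 CPM and then 2.21, 1.62 and 2.57 CPM, and GLIS2, a zinc finger protein, at 0.447, 0.55 and 0.612 CPM and then 2.23, 1.88 and 1.98 CPM. Among 420 tested genes with a ZNF symbol, 166 rose and 121 fell, with a median of 0.06 (-0.09 with upper-quartile factors, -0.14 with library size alone), and the leading members went both ways: ZNF587B rose (log2 fold change 1.86, SE 0.065) and ZNF821 fell (log2 fold change -1.76, SE 0.073).

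Further lists held smaller medians, and their shares are to be read against 33.5% lower and 32.8% higher over all genes. Of 17 NRF2 targets, which defend against oxidants, 8 rose and 3 fell (5 without 3 h replicate 5; median 0.10, and -0.06 with upper-quartile factors and -0.11 with library size alone). KEAP1, which holds NRF2 in check, rose from 78.2, 81.7 and 82.5 CPM to 172, 166 and 177 CPM, and GCLC, of glutathione synthesis, from 27.9, 30.2 and 26.3 CPM to 49.6, 52.8 and 51.4 CPM, both without overlap. Of 11 genes of serine and one-carbon metabolism, 5 fell and 1 rose (median -0.08), with PSPH, the last enzyme of serine synthesis, and CTH, of cysteine synthesis, lower (log2 fold change -0.75, SE 0.058, and -0.85, SE 0.058). Of 10 iron genes, 3 rose and 2 fell (median 0.04, and -0.11 with upper-quartile factors, -0.16 with library size alone and about 0 with a filter of 1 CPM), and FBXL5, the iron-sensing subunit of a ubiquitin ligase, fell from 45.9, 46.3 and 44.5 CPM to 28.3, 26.2 and 29.3 CPM. Of 23 host genes of small nucleolar RNAs, 8 rose and 5 fell (median 0.07, and -0.08 and -0.13 under the same scalings), with SNHG16 higher (log2 fold change 1.02, SE 0.062) and SNHG30 lower (log2 fold change -1.11, SE 0.097). Of 20 genes of CDK inhibition and G1 control, to which CDKN1A and CDKN1B belong, 7 rose and 8 fell (median -0.11).

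Interferon response genes fell in 7 of 15 cases (46.7%) and rose in 2 (median -0.14), against 33.5% lower and 32.8% higher over all genes. Only 4 fell without 3 h replicate 6 or 7. OAS2, an RNA-sensing enzyme, was lower and MX1, an antiviral GTPase, higher (log2 fold change -0.97, SE 0.068, and 0.48, SE 0.061). Of 15 MHC class I genes, 6 fell and 3 rose (median -0.03). NLRC5, the activator of the class, fell from 81.2, 82.8 and 73.3 CPM to 51.04, 48.8 and 51.1 CPM, and all treated libraries lay below the untreated ones. Of 9 tested germinal centre markers, 5 fell and 2 rose (median -0.15), and 1 rose without untreated replicate 3 or without 3 h replicate 6 or 7, with LMO2, a transcriptional co-factor, lower from 19.4, 20.1 and 22.6 CPM to 9.56, 9.49 and 10.4 CPM, without overlap. Of 15 tested genes of the mitochondrial DNA, 4 rose and 1 fell (median 0.08, and -0.07 with upper-quartile factors, -0.12 with library size alone and 0 with no filter). MT-ND2, a subunit of complex I, rose (log2 fold change 0.44, SE 0.077), and MT-CO2, of complex IV, was the gene that fell (log2 fold change -0.202, SE 0.078), a call that was lost without 3 h replicate 5 or 7 or untreated replicate 1 or 3 (adjusted p = 0.109, 0.0924, 0.0504 and 0.106).

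Markers of other cells were at or near 0. The 10 B cell markers summed to 7395 to 7937 CPM untreated and 7608 to 8290 CPM at 3 h, and 4 rose and 5 fell, among them MS4A1, which encodes CD20 (log2 fold change 0.57, SE 0.045), and CD37 (log2 fold change -0.66, SE 0.062). The 9 T and NK cell markers summed to 0.241 to 0.340 CPM untreated and 0.0613 to 0.129 CPM at 3 h, the 9 myeloid markers to 0.120 to 0.260 and 0.204 to 0.215 CPM, and the 10 epithelial and fibroblast markers to at most 0.0358 and 0.0204 CPM. The germinal centre marker SERPINA9 had no read in these libraries. In bulk RNA, a lower share of cells that express a gene and less RNA per cell cannot be told apart.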

How the data were processed

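RNA-seq of 9 Ramos libraries was used, with 3 per time. The deposited table holds raw counts of reads for each Ensembl gene. Per the submitters' processing notes, the tools were GSNAP, HTSeq 0.6.0 and limma 3.30.0 with build hg19; annotation release, strand and counting mode are not given in the sources used here. The 5 HTSeq summary entries, which held 29.1% to 32.4% of reads per library, were set aside, leaving 60234 genes. Reads in genes numbered 46359911 to 52880876 per library, and the biological coefficient of variation was 6.53%.

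In R 4.3.3, edgeR 4.0.16 kept genes by filterByExpr (minimum count 10, minimum total 15), scaled libraries by TMM and fitted a robust quasi-likelihood model to all 9 libraries with 1 mean per group (6 residual degrees of freedom). The test of 3 h against 0 h was two-sided, with Benjamini-Hochberg adjustment over 15847 genes. The SE is the log2 fold change divided by the square root of F. Nothing but the series' design text says that replicates were separate cultures, so p-values measure the spread between these libraries.

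Lengths, classes and GC content came from GENCODE 29 (GRCh38) by gene ID, and levels per kb divide mean CPM by the length of all annotated exons. Promoters came from RefSeq (GRCh38.p14), with 25119 of the 35116 table entries matched to gene IDs of the counts. The 61 gene lists and the rule for named genes were chosen with earlier results of these data known. That rule names a fixed set, the 15 largest changes of each direction (mean of at least 1 CPM), the 10 largest CPM differences, the 5 list members with the smallest p, and 10 rises from under 1 CPM. List members that were not called, exceptions to a list's direction, genes at 0 and marker genes of other cells named beside a count were chosen after their values were seen. No set test was made. The lists held 1918 entries matched to a gene, and a further 17 matched none and are not analysed here. The procedure was tested on simulated counts in which few genes changed, in random directions. That setting differs from these data, so it could not test how the scaling acts where most genes are called. As alternatives, limma-voom (limma 3.58.1), DESeq2 1.42.0, other scalings and filters, the 6 compared libraries alone, a test for more than a 1.2-fold change and each library left out in turn were tried. Figures were drawn with matplotlib 3.10.9.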

Additional observations from a re-analysis of the deposited data

Results flagged for a closer look

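Of the 331 named genes, 7 changed between 3 h and 6 h by at least 2-fold in the direction opposite to their change at 3 h. This was tested by edgeR in the contrast of 6 h against 3 h. EGR4 rose at 3 h and fell again by 6 h, with 0.106, 0.109 and 0.162 CPM against 1.33, 1.02 and 1.37 CPM at 3 h, a log2 fold change of -3.28 (adjusted p = 6.94e-07). DUSP5 was at 0.234, 0.175 and 0.184 CPM at 6 h against 1.11, 0.881 and 0.898 CPM at 3 h, a log2 fold change of -2.265 (adjusted p = 1.165e-05), with levels at 6 h nearer the limit of detection. FOSL2 was at 0.702, 0.591 and 1.04 CPM against 2.21, 1.62 and 2.57 CPM, a log2 fold change of -1.46 (adjusted p = 0.000347), and CNTF, a cytokine gene, at 1.25, 0.919 and 0.923 CPM against 2.47, 2.64 and 2.12 CPM, a log2 fold change of -1.22 (adjusted p = 3.41e-05). TRA2A, a splicing regulator that had risen at 3 h, fell to 68.3, 69.3 and 72.02 CPM from 137, 142 and 144 CPM, a log2 fold change of -1.015 (adjusted p = 5.87e-09). S1PR2, a germinal centre marker, had a small rise at 3 h (log2 fold change 0.30). The rise was not called with library size alone (adjusted p = 0.194) or upper-quartile factors (adjusted p = 0.0517). It was also not called when tested for more than a 1.2-fold change (adjusted p = 0.208). By 6 h S1PR2 fell to 26.4, 28.3 and 24.9 CPM from 54.99, 51.9 and 53.1 CPM, a log2 fold change of -1.01 (adjusted p = 7.24e-08). That fall is larger than the rise, so it is not a return to the untreated level. LRFN1, which fell most at 3 h, was at 0.277, 0.241 and 0.208 CPM at 6 h against 0.0858, 0.0979 and 0.122 CPM at 3 h, a log2 fold change of 1.23 (adjusted p = 0.0194). All 3 libraries of 6 h lay on the far side of all 3 libraries of 3 h for each of the 7 genes. The named genes were chosen mostly for their change at 3 h, and both contrasts share the 3 h libraries. The 7 therefore say nothing of how frequent such a change of direction is.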

How the results depend on the processing

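Over 18 alternatives, the number of called genes ran from 7261 (minimum fold of 1.2) to 10919 (library size alone), against 10505. The number higher was 3453 against a minimum fold of 1.2, and the number higher by at least 2-fold was 505 with upper-quartile factors and 438 with library size alone, against 784. Leaving out each library in turn gave 9747 to 10761 called genes, 4885 to 5332 higher and 4862 to 5443 lower, and at 2-fold 770 to 829 higher and 1684 to 1779 lower. Of 331 named genes, 307 kept their direction and their side of the threshold under every alternative. Of 5955 values, 42 lost the call, 2 gained it and 1 reversed: SLC11A2, an iron transporter that was called higher, had a log2 fold change of -0.0144 with library size alone. MT-CO2 lost its call without 3 h replicates 5 or 7 or untreated replicates 1 or 3 (-0.21 to -0.17, adjusted p up to 0.109). The cause of these changes was not tested. Without untreated replicate 3, ribosomal protein genes were 24 higher and 1 lower, against 8 and 4. No paired analysis was possible because the replicate numbers of the groups do not overlap. Depth limits genes near 0.0567 to 0.0647 CPM, where a library holds 3 reads.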
